A study of Ovis aries with 16 samples.

Results

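Among the 694 small nucleolar RNA (snoRNA) genes measured in sheep liver and skeletal muscle, 4 are described here together with 2 long non-coding RNA (lncRNA) genes that enclose 2 of their loci, 6 of 4920 features in all. The snoRNA genes are LOC114117067, LOC114117661, LOC114117663 and LOC114117421, and the host lncRNA genes are LOC114116957 and LOC105609544. They were chosen by their share of the snoRNA reads in these libraries, or because they enclose a gene chosen so. For that reason their levels and the difference between the tissues are given as a description, with no test. The contrast of control and exposed ewes is tested for them.

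The libraries came from 8 female sheep. Ewes 98, 131, 132 and 201 were controls, and ewes 48, 185, 233 and 255 had been exposed to excess testosterone before birth (prenatal T), a model of developmental programming. Liver and muscle of each ewe were sequenced, which gives 4 groups of 4 libraries. Total RNA was taken with Trizol and made into libraries with a NEBNext small RNA kit. The strain, the age of the ewes at sampling, and the dose and timing of the testosterone, were not stated in the sources used.

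As background, snoRNAs are short stable RNAs of the nucleolus. Most belong to one of a pair of classes, which guide ribose methylation or the change of uridine to pseudouridine at chosen positions of ribosomal RNA and of some small nuclear RNAs. In mammals most are not transcribed on their own: they are cut from the introns of a host transcript, which may code for a protein or may be a lncRNA whose exons have no known use. Liver and muscle both make ribosomes throughout life, so snoRNAs are found in both. The annotation gives these 4 genes no name beyond the LOC identifier, and none is given to them here.

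The deposited values are normalised: each library's reads were divided by its size factor, and the factors were set separately for each RNA class and tissue. Whole reads could be recovered from them, so 2 scales are used: the normalised value, which is compared within a tissue only, and the share of a class's reads in a library, which can be set side by side across tissues. Neither is corrected for gene length. A library held 5278 to 13951 snoRNA reads in liver and 2180 to 5766 in muscle, and 38399 to 124174 and 122749 to 926854 lncRNA reads. MIR133, a skeletal muscle microRNA, held 37.2% to 56.4% of the microRNA reads in muscle and at most 0.227% in liver, and the hepatocyte-rich MIR148A and MIR194 held 9.97% to 14.6% in liver and at most 0.351% in muscle. By the library numbers in the labels, the libraries fall into 2 sets: the first holds 2 livers (ewes 98 and 48) and 7 muscles, and the second the other 6 livers and the muscle of ewe 255. That muscle stands apart: snoRNAs made up 1.42% of its reads over the 4 RNA classes against 0.234% to 0.386% in the other 7 muscles, and its MIR133 share of 37.2% lay below their 50.0% to 56.4%. The liver of ewe 48 held 0.830% snoRNA reads, below the 2.11% to 2.89% of the other livers. Muscle is therefore given with and without ewe 255.

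LOC114117067 was the largest single source of snoRNA reads. In liver it took 10.25%, 9.51%, 8.58% and 10.2% of them in control ewes 98, 131, 132 and 201, and 6.80%, 9.50%, 9.21% and 8.74% in prenatal T ewes 48, 185, 233 and 255. In muscle the shares were 12.3%, 11.4%, 10.1% and 8.70% in controls and 14.2%, 11.7%, 11.5% and 17.9% in prenatal T ewes. It ranked first of all snoRNAs in every library except the liver of ewe 48, where it ranked 2nd. The lowest share is that liver, and the highest is the muscle of ewe 255, with a 95% Wilson interval of 16.6% to 19.2% that covers counting error only. The mean over muscles was 12.2% ± 2.78 (SD, n = 8) with ewe 255 and 11.4% ± 1.72 (n = 7) without it, against 9.10% ± 1.11 (n = 8) in liver. Within an ewe the muscle share was above the liver share in 7 of 8, with a median ratio of 1.22 and a range of 0.849 to 2.09. The next snoRNA by mean share in both tissues was LOC114111353, which is no member, lies inside EIF4G1 (a translation initiation factor) and held 4.52% in liver and 6.49% in muscle.

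LOC114117661 and LOC114117663 lie in the same host gene. The share of LOC114117661 in liver was 7.84%, 3.18%, 2.61% and 2.61% in controls and 6.04%, 2.62%, 2.52% and 3.04% in prenatal T ewes. The 2 high values are ewes 98 and 48, 1 from each group, and the other 6 livers lay within 2.52% to 3.18%. In muscle it held 5.62%, 5.45%, 5.96% and 4.99% in controls and 5.17%, 6.56%, 5.41% and 3.35% in prenatal T ewes, where ewe 255 was the lowest. LOC114117663 was also higher in livers 98 and 48 than in the other livers, with 4.40% and 4.73% against 1.35% to 2.71%. In muscle it held 1.65% in ewe 255 and 2.45% to 3.53% in the other 7. These low shares in ewe 255 did not hold on the normalised scale. There LOC114117661 had 184 in that muscle against 141 to 193 in the other 7, and LOC114117663 90.6 against 67.6 to 99.1. LOC114117661 exceeded LOC114117663 in 8 of 8 livers and 8 of 8 muscles.

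LOC114117421 held a smaller share of the snoRNA reads in muscle than in liver, with a median of 0.322 of the liver share within an ewe. It held 2.26%, 4.61%, 4.99% and 4.09% of the snoRNA reads in control livers and 5.43%, 4.59%, 3.75% and 4.26% in prenatal T livers. In muscle it held 1.32%, 1.48%, 1.61% and 1.33% in controls and 0.867%, 1.97%, 1.16% and 0.676% in prenatal T ewes. No liver overlapped a muscle, and the muscle share was below the liver share in every ewe, at 0.159 to 0.587 of it. How many of the other snoRNAs part the tissues in this way was not counted. LOC114117421 ranked 3rd among snoRNAs in liver by mean share and 13th in muscle. Its muscle values rest on 23 to 52 reads per library, and the 23 reads of ewe 255 give an interval of 0.451% to 1.01%. Its normalised value in that muscle was 37.2, within the 25.8 to 58.1 of the other 7. In bulk tissue, fewer cells of a type and less RNA per cell cannot be told apart, which holds for each tissue difference here.

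**Figure D1:**
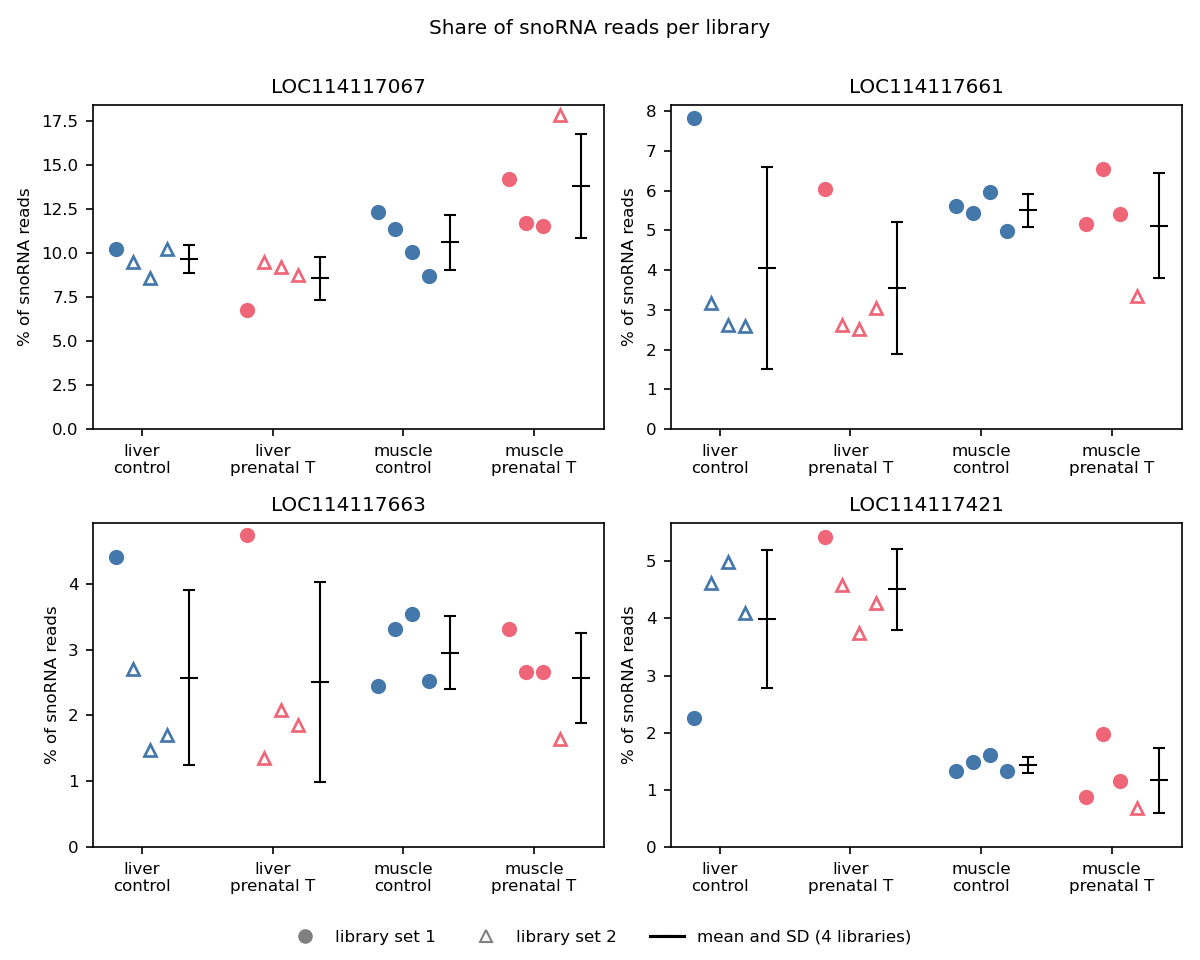
Share of each library's snoRNA reads (percent) taken by the 4 snoRNA genes, in liver and muscle of control and prenatal T ewes; each point is a library and its shape gives the library set. LOC114117067 lies above the other members in all 16 libraries, LOC114117421 is lower in every muscle than in any liver, and the livers of ewes 98 and 48 stand high for LOC114117661 and LOC114117663.

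The order of the members varied below the first place. LOC114117067 lay above the other members in 16 of 16 libraries. LOC114117661 exceeded LOC114117421 in 8 of 8 muscles but in only 2 of 8 livers, those of ewes 98 and 48, and LOC114117663 exceeded LOC114117421 in 8 of 8 muscles and 1 of 8 livers. In liver the first of these orders divides by library set: LOC114117661 exceeded LOC114117421 in 2 of 2 livers and 7 of 7 muscles of the first set, and in 0 of 6 livers and 1 of 1 muscle of the second. The mean shares of LOC114117421 and LOC114117661 in liver were 4.25% ± 0.957 and 3.81% ± 2.01 (SD, n = 8). These means pool 2 library sets in which the order of the 2 genes was opposite. Together the 4 genes took 17.6% to 24.7% of the snoRNA reads in liver and 17.5% to 23.5% in muscle.

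The tissue and the library set are largely confounded, since 6 of 8 livers are in one set and 7 of 8 muscles in the other. Within the first set, LOC114117421 remained higher in liver (2.26% and 5.43%) than in muscle (0.867% to 1.97%), and within the second it was 3.75% to 4.99% in liver against 0.676% in the muscle of ewe 255. For LOC114117067 the first set overlapped, with 6.80% to 10.25% in liver and 8.70% to 14.2% in muscle. In the second set it held 8.58% to 10.2% in liver and 17.9% in the muscle of ewe 255. LOC114117661 also overlapped in the first set, with 6.04% to 7.84% in liver and 4.99% to 6.56% in muscle. In the second it held 2.52% to 3.18% in liver and 3.35% in that muscle. Over all libraries its muscle share was above the liver share in 6 of 8 ewes. In ewes 98, 48 and 255 both tissues share a set. There the muscle share was 1.20, 2.09 and 2.04 times the liver share for LOC114117067, and 0.717, 0.856 and 1.10 times for LOC114117661. LOC114117663 was higher in liver in the first set (4.40% to 4.73% against 2.45% to 3.53%) and overlapped in the second. Such gaps between the library sets were frequent among snoRNAs: of the 161 with a mean normalised value of at least 5 in liver, the share in livers 98 and 48 lay above all 6 other livers in 36.6% and below them in 19.9%. Of the 110 such snoRNAs in muscle, ewe 255 lay above the other 7 in 24.5% and below them in 53.6%.

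The positions of the genes relative to each other were read from the RefSeq annotation of assembly ARS-UI_Ramb_v3.0. The authors' genome build is not given in the sources used here, so no coordinates are printed. LOC114117067 lies inside LOC114116957, between ERN1, a sensor of stress in the endoplasmic reticulum, and TEX2. LOC114117661, LOC114117663 and a further snoRNA gene, LOC114117662, lie inside LOC105609544. LOC114117421 is the first of a cluster of 10 snoRNA genes. The interval alone defined a host, because the annotation table used gives no strand.

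The reads of both host genes were, in number, those of the snoRNAs inside them. LOC114116957 held 10732 reads over the 16 libraries and LOC114117067 held 10722, a difference of 10. In 9 of 16 libraries the 2 numbers were equal, and in the others the host had 1 or 2 reads more. LOC105609544 held 8944 reads and its 3 snoRNAs 8926, a difference of 18, with equal numbers in 6 libraries and at most 3 reads more in the others. Per 1000 snoRNA reads the host had 1000 to 1005 reads at the first locus and 1000 to 1013 at the second. Whether the same reads entered both tables was not tested, since the alignments were not used here. The values of these lncRNA rows therefore cannot be told apart from the level of the snoRNAs within them, and give no separate measure of the host transcript.

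**Figure D2:**
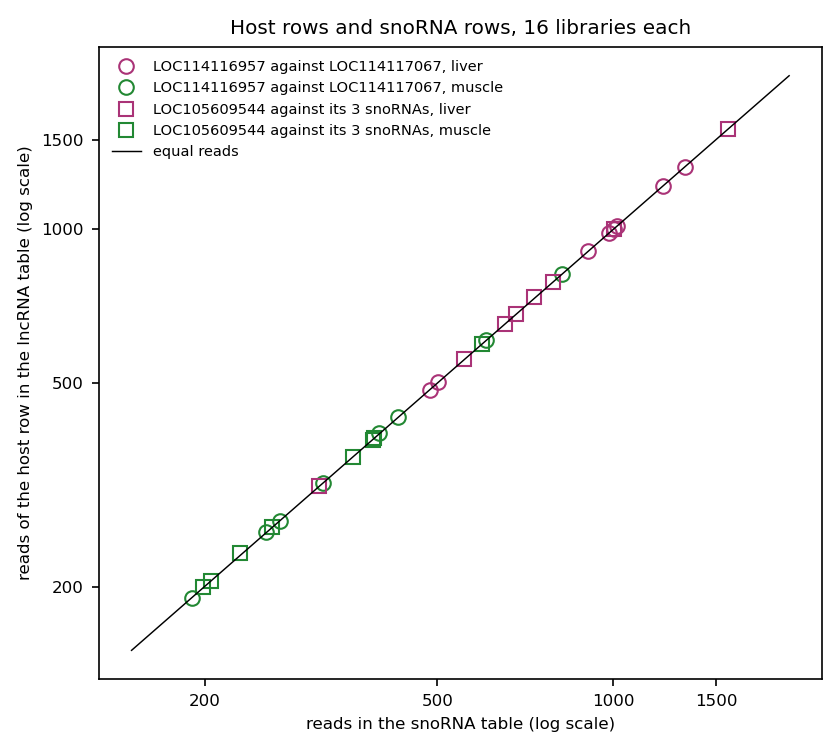
Reads of each host lncRNA gene (vertical axis) against the summed reads of the snoRNA genes inside it (horizontal axis), both axes logarithmic, 1 point per library. All 32 points lie on or within 3 reads of the line of equal numbers.

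Close numbers were frequent among hosts with at least 100 reads. Of 23 lncRNA genes that enclose a snoRNA gene of the table, 12 had at least 100 reads, and in 9 of these the snoRNA reads came to at least 90% of the host's reads. In 4 of the 9 they came within 2%: the 2 members, LOC101104162 with 734 snoRNA reads of 743, and LOC101102543. The other 3 hosts were lower, among them LOC105602999, whose snoRNAs had no read against 106 for the host. In LOC101116687 the snoRNAs inside held 1327 reads against 2494 for the host, or 53.2%. In LOC105606646, which lies between DLK1 and DIO3, the ends of an imprinted region, 33 snoRNA genes held 539 reads against 2829, or 19.1%. Below 100 host reads, some hosts had fewer reads than the snoRNA inside: LOC114114030 had 1 against 78, and LOC105609765 had 0 against 34.

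Because they sit among the lncRNAs, the host genes appeared as abundant lncRNAs, LOC114116957 ranking 11th in liver and 13th in muscle by mean share and LOC105609544 13th and 16th. As a share of lncRNA reads, LOC114116957 held 1.59% ± 0.175 in control livers and 1.10% ± 0.468 in prenatal T livers (SD, n = 4 each). In muscle it held 0.0749% ± 0.0224 in controls and 0.174% ± 0.214 in prenatal T ewes, and 0.0671% ± 0.0188 (n = 3) without ewe 255. The share in that muscle alone was 0.495%, while the other 7 muscles lay between 0.0453% and 0.0955%. LOC105609544 held 1.44% ± 0.917 and 0.835% ± 0.0829 in liver, where ewe 98 alone reached 2.77%. In muscle it held 0.0750% ± 0.0184 in controls and 0.0843% ± 0.0554 in prenatal T ewes, or 0.0567% ± 0.00671 without ewe 255.

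Within LOC105609544 the composition of the 3 snoRNAs varied by library, with LOC114117661 the largest in 8 of 8 livers and 8 of 8 muscles. LOC114117661 supplied 42.4% to 50.1% of their reads in liver and 48.5% to 55.6% in muscle, LOC114117663 25.7% to 36.7% and 22.2% to 32.1%, and LOC114117662 19.5% to 24.6% and 17.1% to 23.0%. The ranges of the tissues overlap for each gene. In proportion, the share of the 3 together in all snoRNA reads varied more. It was 13.6% to 16.0% in livers 98 and 48 and 5.25% to 7.39% in the other livers. In muscle it was 9.11% to 12.3% in the first 7 and 6.03% in ewe 255. As a share of snoRNA reads, all 3 snoRNAs at this locus, not 1 of them, were thus higher in livers 98 and 48 than in the other livers. This did not hold for ewe 48 on the lncRNA scale. There the normalised value of the host was 1441 in liver 98 and 635 in liver 48, against 558 to 1005 in the second library set. The liver of ewe 48 also had the lowest part of snoRNAs in its reads over the 4 RNA classes among the livers.

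The 10 snoRNA genes of the cluster that holds LOC114117421 differed widely in their reads. They held 6957 reads in liver and 953 in muscle, or 6.14% to 10.8% and 2.03% to 4.42% of the snoRNA reads per library. All 10 were detected in liver and 9 in muscle, where LOC114117374 had no read; it had 22 in liver. LOC114117421 supplied 36.8% to 54.7% of the cluster in liver and 24.6% to 48.9% in muscle, and LOC114117363 16.8% to 25.0% and 15.5% to 36.2%. LOC114117362 supplied more in muscle than in liver within both library sets, and more in the first set than in the second within each tissue. In the first set it supplied 4.02% and 12.3% in livers 48 and 98 and 12.8% to 26.2% in the 7 muscles. In the second it supplied 1.76% to 2.75% in the 6 livers and 4.35%, from few reads, in the muscle of ewe 255.

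**Figure D3:**
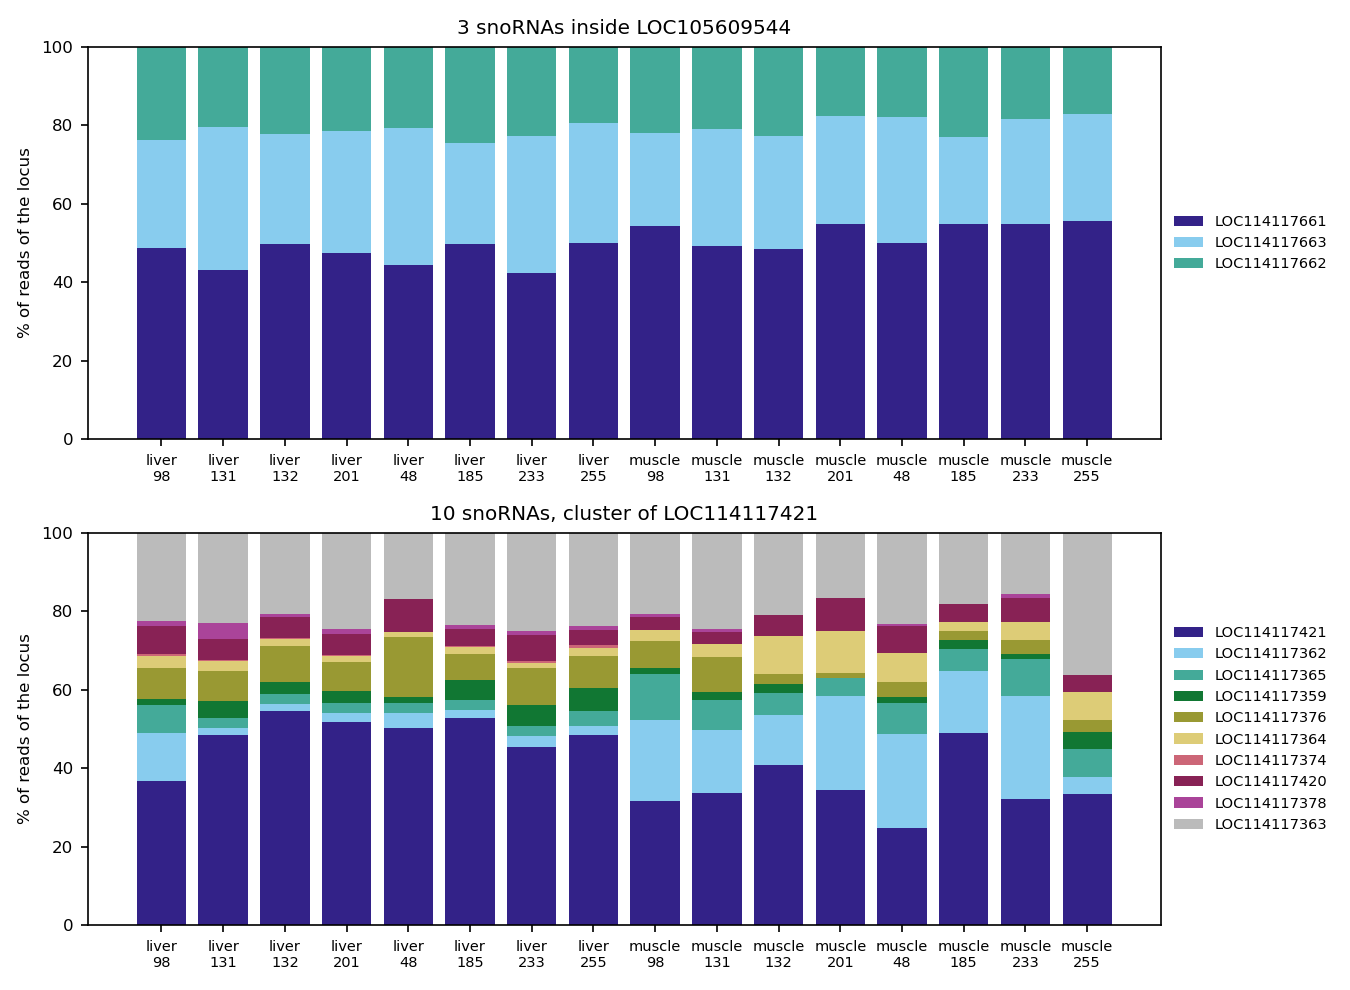
Percent of the reads of each snoRNA group supplied by its members, per library, for the 3 snoRNAs inside LOC105609544 and the 10 of the cluster that holds LOC114117421. LOC114117661 supplies 42.4% to 55.6% of the first group throughout, while in the second LOC114117421 supplies 36.8% to 54.7% in liver and 24.6% to 48.9% in muscle.

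The nearest snoRNA gene to LOC114117067 is LOC114117091, which lies outside the host and had only 10 to 43 reads per library. The ratio of LOC114117067 to LOC114117091 reads was 13.2 to 67.7 in liver (median 41.9) and 7.31 to 60.7 in muscle (median 10.7), the highest muscle being ewe 255. Across libraries the normalised values of the 2 genes ran in opposite directions, with Pearson's r of -0.90 over 8 livers and -0.93 over 8 muscles, and -0.76 over the 7 muscles without ewe 255. These points share the library and its scaling, and LOC114117091 rests on few reads. In liver they also divide by library set. Livers 98 and 48 had 0.368% and 0.516% of snoRNA reads in LOC114117091, against 0.151% to 0.246% in the second set. Their LOC114117067 values were 673 and 462, against 846 to 1146. The correlation within the second set was not computed.

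Prenatal T and control ewes were compared within each tissue on log2(normalised value + 1) with limma, a linear model fitted across all snoRNAs or all lncRNAs with a mean value of at least 5, with Benjamini-Hochberg adjustment. Fold changes on this scale understate the change of low genes. All 6 members passed the filter in both tissues. None of the 4 snoRNA members was called at an adjusted p under 0.05 in liver, where 0% of the 161 snoRNAs tested were called, nor in muscle, where 0% of 110 were. None had an unadjusted p under 0.05 in either tissue, and edgeR and DESeq2 on the recovered reads also called 0 snoRNAs. At an unadjusted p under 0.05, limma counted 0 snoRNAs in liver and 0 in muscle, edgeR 0 and 2, and DESeq2 0 and 1.

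For LOC114117067 the liver values were 673, 986, 898 and 1146 in controls and 462, 963, 846 and 913 in prenatal T ewes. The groups overlapped, with ewe 48 the lowest, and the log2 fold change was -0.25 (SE 0.32, limma adjusted p = 0.982). With the library set as a covariate the SE was 0.13 and the limma adjusted p 0.676. Without ewe 48 the log2 fold change was -0.0049. Within the second library set alone (3 against 3) it was -0.15 (SE 0.12, limma adjusted p = 0.789). In muscle the values were 341, 323, 282 and 246 in controls and 422, 345, 328 and 982 in prenatal T ewes. Here 3 of the 4 prenatal T values exceeded every control value and 1, that of ewe 233, lay within the control range. The log2 fold change was 0.65 (SE 0.31), with the 2nd smallest p of the 110 snoRNAs, 0.0625 unadjusted and 0.873 adjusted by limma. Without ewe 255 it was 0.29 (SE 0.15, limma adjusted p = 0.685). As a share of snoRNA reads the muscle difference was 3.21 percentage points, with an exact two-sided permutation p of 0.114 and 0.514 after adjustment over the 12 share comparisons; the smallest p this design allows is 0.0286. Without ewe 255 it was 1.86 points, with an exact two-sided permutation p of 0.229 and 0.549 after the same adjustment.

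The 3 other snoRNA members differed by less than their standard errors between the groups when all 8 libraries of a tissue were fitted without the library set. LOC114117661 had liver values of 515, 329.6, 274 and 291 in controls and 411, 265, 231 and 317 in prenatal T ewes, a log2 fold change of -0.19 (SE 0.34, limma adjusted p = 0.982); with the library set as a covariate the SE was 0.15 and the limma adjusted p 0.676. Its muscle values were 155, 155, 167 and 141 against 154, 193, 154 and 184, a log2 fold change of 0.14 (SE 0.15, limma adjusted p = 0.873) and 0.10 without ewe 255. LOC114117663 ran from 155 to 289 in control livers and 137 to 322 in prenatal T livers, with a log2 fold change of -0.14 (SE 0.39) and, within the second library set, -0.24 (SE 0.23, limma adjusted p = 0.816). In muscle it ran from 67.6 to 99.1 in controls and 75.7 to 98.5 in prenatal T ewes, with a log2 fold change of 0.058 (SE 0.20). LOC114117421 had liver values of 148, 478, 523 and 458 in controls and 369, 465, 345 and 445 in prenatal T ewes. The low control is ewe 98, and the log2 fold change was 0.16 (SE 0.43) over all livers and -0.23 (SE 0.14, limma adjusted p = 0.780) within the second library set. In muscle it ran from 36.6 to 45.1 in controls and 25.8 to 58.1 in prenatal T ewes, with -0.12 (SE 0.27) and, without ewe 255, -0.13. Of the 10 snoRNA genes of its cluster, 9 were tested in liver and 6 in muscle, and none was called.

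**Figure D4:**
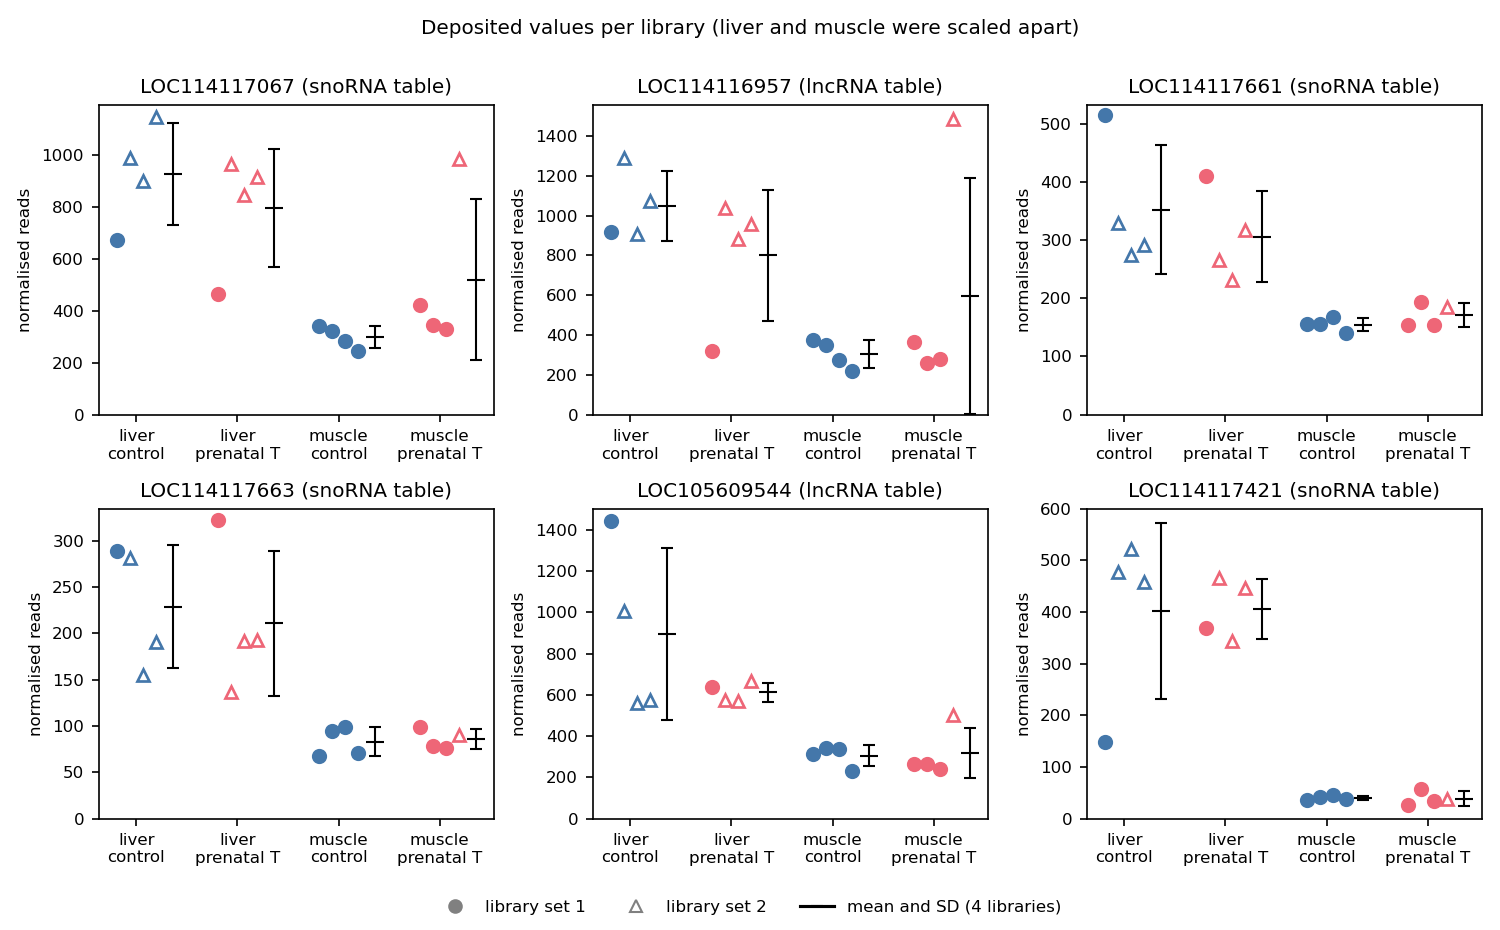
Deposited normalised values (scaled by each library's size factor, not comparable across tissues) of the 6 genes by group, 1 point per library, with the mean and SD of each group. Control and prenatal T values overlap for every gene in both tissues, and the muscle of ewe 255 reaches 982 for LOC114117067 and 1484 for LOC114116957.

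The host genes give a second scaling of nearly the same read numbers. LOC114116957 had liver values of 919.8, 1289.6, 909 and 1073 in controls and 318, 1039.5, 882 and 960.0 in prenatal T ewes, with ewe 48 the lowest. The log2 fold change was -0.51 (SE 0.37, limma adjusted p = 0.890), against -0.25 for LOC114117067. It was -0.11 without ewe 48 and -0.17 within the second library set. In muscle its values were 374, 352, 274 and 221 in controls and 364, 261, 277 and 1484 in prenatal T ewes, so that a single library stands above the rest. The log2 fold change there was 0.57 (SE 0.50, limma adjusted p = 0.812) and -0.0041 (SE 0.23) without ewe 255, whereas LOC114117067 remained at 0.29 without it. The host's value was 0.687 to 1.37 times that of the snoRNA in liver and 0.758 to 1.51 times in muscle, although the reads differed by at most 2; the ratio therefore follows the size factors of the 2 tables.

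LOC105609544 had liver values of 1441, 1005, 558 and 576 in controls and 635, 577, 572 and 666 in prenatal T ewes, with a log2 fold change of -0.43 (SE 0.32, limma adjusted p = 0.890). It was -0.17 without ewe 98, the highest, and -0.18 within the second library set. In muscle the values were 313, 341, 335 and 232 against 265, 266, 240.0 and 501. The log2 fold change was 0.0072 (SE 0.28, limma adjusted p = 0.997), and -0.23 (SE 0.20, limma adjusted p = 0.875) without ewe 255. Neither host was called in liver, where 0% of the 121 lncRNAs tested were called, or in muscle, where 4 lncRNAs (3.51% of those tested) were called, all lower in prenatal T ewes and no member among them. Control and prenatal T values of the 6 members overlapped in all 12 comparisons. Groups that did not overlap made up 0% of snoRNAs in liver and in muscle, 0% of lncRNAs in liver and 5.26% of lncRNAs in muscle.

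Whether prenatal T had a different effect in muscle and liver was tested with all 16 libraries in a single limma fit, which called 0% of the 153 snoRNAs and 0% of the lncRNAs tested; 0 and 5 had an unadjusted p under 0.05. For LOC114117067 the effect in muscle exceeded that in liver by 0.90 on the log2 scale (SE 0.43, limma adjusted p = 0.917), and for LOC114116957 by 1.09 (SE 0.67, limma adjusted p = 0.905). Without ewe 255 these differences were 0.63 and 0.64. The labels give liver and muscle of each ewe 1 shared number. With the ewe as replicate block the fit again called 0 in both classes, and the difference for LOC114117067 was 0.90 with an SE of 0.40 (limma adjusted p = 0.849).

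Among the 105 snoRNAs with a mean value of at least 5 in both tissues, the one whose normalised values ran most like those of LOC114117067 was LOC114118129, which lies inside SF3B3, a gene of the splicing machinery, with r of 0.92 over 8 livers and 0.94 over 8 muscles. It had 36.9 and 24.9 in the livers of ewes 98 and 48, 203.6 to 234 in the other 6 livers, 6.11 to 13.5 in 7 muscles and 228 in the muscle of ewe 255, which is the division of the library sets. Over the 6 livers of the second set r was 0.62, and over the 7 muscles without ewe 255 it was 0.45. LOC114117661 was most like LOC114117662 from the same host (r of 0.94 in liver and 0.67 in muscle, 0.86 without ewe 255), but over the 6 livers of the second set r was 0.57. LOC114117663 was most like LOC114118623, inside the ribosomal protein gene RPS3 (0.74 and 0.76, 0.88 without ewe 255), with 0.66 over the 6 livers of the second set. LOC114117421 was most like LOC114117058, inside LOC101104162 (0.81 and 0.70, 0.80 without ewe 255), but over the 6 livers of the second set r was -0.87. The members of LOC105609544 correlated with each other in liver, LOC114117661 with LOC114117663 at 0.78, but at 0.24 in muscle and 0.16 there without ewe 255. Livers 98 and 48 had the highest values of both genes. For this pair r over the 6 livers of the second set was not computed. All of these are descriptions over libraries that share depth and scaling.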

How the data were processed

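Small RNA libraries of liver and muscle from 4 control and 4 prenatal T ewes were used. Tools named in the submitters' processing notes are featureCounts 1.6.1, STAR 2.6.0c and cutadapt 3.2. Their roles, how reads that overlap 2 genes were counted, and the genome build were not stated in the sources used. The authors deposited a normalised signal: size factors had been divided out within each RNA class and tissue. All 4471 snoRNA and 10585 lncRNA values above 0 were whole multiples of 1 read within 0.001, and the recovered reads gave depths and shares. Replicate libraries differed by more than counting noise (chi-square per degree of freedom 13.1 to 160 over 24 pairs). Groups follow the labels, which give the 4 libraries of a group to 4 ewes.

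limma 3.58.1 (R 4.3.3) with a variance trend was run on log2(value + 1) over all features with a mean of at least 5 in the tissue; edgeR 4.0.16 and DESeq2 1.42.0 on recovered reads were alternatives. Adjusted p-values run over a whole class, with a threshold of 0.05. For shares, all 70 assignments of the libraries were enumerated in a two-sided exact test by permutation (scipy 1.17.1). The limma comparison was tested on simulated data. Alternatives covered pseudocounts of 0.5 and 5, the filter on low values, other scalings, the library set, the ewe as replicate block and each library left out. Pairing comes from the ewe numbers. Over 153 snoRNAs, the deviations of an ewe's libraries from their group means correlated at 0.66 in ewes 48 and 255. In the others the correlation was between -0.19 and 0.20. Liver and muscle shared a library set in ewes 48, 255 and 98, and the correlation in ewe 98 was 0.19.

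Of the snoRNA and lncRNA identifiers, 621 of 694 and 1372 of 2973 matched the RefSeq table. Hosts were to be matched on the same strand; the table gives none, so the interval alone was used. The members, lists and the named genes (the members, the snoRNAs of their loci, the most alike snoRNA of each and the 3 largest other hosts) were chosen with earlier results of these data known. The comparisons of library sets and of reads within a locus were added as descriptions. Sequences were not used here. Some neighbouring genes are not reported here.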

Additional observations from a re-analysis of the deposited data

Results flagged for a closer look

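Of 48 groups of 4 libraries examined for a single library far from the other 3, by a gap above Dixon's 95% critical value, 9 stood out; chance gives about 1 in 20, and the groups are not independent, since a host and its snoRNAs hold nearly the same reads. In the muscle of ewe 255 the normalised value of LOC114117067 was 981.7, against 328 to 422 in the other prenatal T muscles. In the same library LOC114116957 had a value of 1484 and 0.495% of lncRNA reads, and LOC105609544 a value of 501 and 0.167%. The library differs from those 3 in its library set and its snoRNA share. It also lay outside the other 7 muscles in microRNA markers, given as percent of microRNA reads. MIR133, the 1 of 6 skeletal muscle markers in the table, held 37.2% against 50.0% to 56.4%. MIR16B, the 1 of 4 erythroid markers, held 0.474% against 0.207% to 0.288%, and MIR150, the 1 of 4 immune markers, 0.531% against 0.189% to 0.389%. The 3 of 5 vessel and stroma markers held 1.95% against 2.62% to 4.04%, and the 2 of 5 hepatocyte markers 0.312%, within the 0.186% to 0.351% of the others. The part of these differences in these values was not tested. In livers of the first library set, LOC114117661 held 7.84% of snoRNA reads in ewe 98 and 6.04% in ewe 48. LOC114116957 held 0.404% of lncRNA reads in the liver of ewe 48, against 1.27% to 1.37% in the other prenatal T livers. LOC105609544 held 0.0477% in the muscle of control ewe 201, against 0.0799% to 0.0862% in the other control muscles.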

How the results depend on the processing

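Under 392 alternatives of 34 member results, 349 kept their direction and 43 reversed. No member crossed a threshold, and 14 results kept their direction throughout. Of the 43, host reads per 1000 snoRNA reads gave 5 in liver and 3 in muscle for LOC114116957, and 3 and 1 for LOC105609544. The sign of those results rests on host and snoRNA reads that differed by 0 to 3 per library. Scaling to the 4-class total moved the median snoRNA log2 fold change in liver from -0.043 to -0.54 and gave -0.33 for LOC114117421; scaling to the class total moved the muscle median from 0.060 to -0.23 and gave -0.14 for LOC114117661 and -0.22 for LOC114117663, each above the shifted median. edgeR gave -0.0030 for LOC114117663 in muscle. In the second library set alone LOC114117421 in liver was -0.23 (share -0.364 points), and the reads of LOC114116957 per 1000 snoRNA reads differed by -0.484 (prenatal T minus control). With library set as a covariate, LOC114116957 and LOC105609544 in muscle were -0.0041 and -0.23. As shares of all 4 classes, LOC114117421 in liver differed by -0.0194 points, and in muscle LOC114117661, LOC114117663 and LOC114117421 by 0.00444, 0.00162 and 7.76e-05. The lncRNAs called in muscle fell from 4 to 1 without the variance trend. With the ewe as replicate block no call changed (0 snoRNAs, 0 lncRNAs).

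With each library left out in turn, the lncRNAs called in muscle ranged from 1 to 4. Liver log2 fold changes ranged from -0.34 to 0.0085 for LOC114117661, -0.37 to 0.045 for LOC114117663 and -0.27 to 0.34 for LOC114117421. Muscle ones ranged from -0.033 to 0.15 for LOC114117663, -0.34 to 0.043 for LOC114117421, -0.0041 to 0.83 for LOC114116957 and -0.23 to 0.12 for LOC105609544. Share differences in percentage points ranged in liver from -1.33 to 0.754 for LOC114117661, -0.815 to 0.539 for LOC114117663 and -0.0578 to 0.852 for LOC114117421, and in muscle from -0.862 to 0.207 for LOC114117661, -0.00787 to 0.139 for LOC114116957 and -0.0182 to 0.0202 for LOC105609544. Host reads per 1000 snoRNA reads differed by -0.300 to 0.688 and -1.03 to 0.813 for LOC114116957 in liver and muscle, and by -0.749 to 0.631 and -1.90 to 2.45 for LOC105609544. The groups of 4, and muscle depths of 23 to 52 reads for LOC114117421, limit what can be seen.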
